A study of Mus musculus with 12 samples.

Results

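The genes described here are 10 factors and receptors that thymic progenitors carry over from their stem cell and multipotent ancestors: Lmo2, Lyl1, Meis1, Hhex, Mef2c, Bcl11a and Spi1, which act on transcription, and Kit, Flt3 and Cd34, which sit on the cell surface. They were given as a list of names, drawn up with earlier results of these data known, and are 10 of the 33696 genes in the files. Their Ensembl identifiers were ENSMUSG00000032698 for Lmo2, ENSMUSG00000034041 for Lyl1, ENSMUSG00000020160 for Meis1, ENSMUSG00000024986 for Hhex, ENSMUSG00000005583 for Mef2c, ENSMUSG00000000861 for Bcl11a, ENSMUSG00000002111 for Spi1, ENSMUSG00000005672 for Kit, ENSMUSG00000042817 for Flt3 and ENSMUSG00000016494 for Cd34. Their levels were read in the thymic double-negative (DN) sort first, then in γδ T cells of the thymus and the spleen, by genotype and in cells split by Kit and Ptcra.

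The earliest cells that seed the thymus still transcribe a stem cell program. During the DN1 and DN2 stages Notch signals switch this program off while T cell genes come on, and cells that pass to DN3 rearrange their receptor genes and make Ptcra, the pre-T cell receptor α chain. Kit marks the early stages, Il2ra (CD25) comes on at DN2, and persistence of Lmo2, Lyl1, Mef2c or Hhex into later stages is known from T cell leukemia. GFI1 is a zinc finger repressor that is itself active in stem cells and in early thymocytes.

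Each of 6 droplet pools mixed hashtagged cells of WT mice and of mice with a germline deletion of Gfi1 (GFI1 KO), all adult and on the C57BL6/J background, and each pool was split by hashtag into 1 library per genotype. The 12 libraries comprised 2 per genotype of γδ T cells from the spleen, of γδ T cells from the thymus and of thymic DN1 to DN3 cells in 1 sort. B, myeloid and NK cells had been depleted on magnets before the sort, and CD8+ thymocytes in part. The libraries are called WT 1, WT 2, KO 1 and KO 2 after the number of their pool, and whether a pool held the cells of 1 mouse or of several was not given in the sources used here, so p values measure the spread between these libraries.

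After filters on cell quality, the libraries held 6795 to 11679 cells and 42091895 to 71663962 UMIs, with medians of 4947 to 6853 UMIs per cell. Values are CPM, the UMIs of a gene scaled to a common total of UMIs in a library or cell class, so a level of a gene in a sort cannot separate fewer expressing cells from less RNA per cell. No cell barcode was shared by both genotypes of a pool, and other pairs of libraries shared 5 to 34 barcodes, at most 0.499% of the smaller one. The 3′ reads of Gfi1 did not check the genotype: its level was 44.7 and 40.6 CPM in the WT and 70.6 and 56.6 CPM in the KO libraries of the DN sort, and it was not lower in the KO libraries of the thymic or splenic γδ T cells, with a lowest value of 11.8 CPM in WT and of 18.1 CPM in KO. WT and KO below therefore mean the libraries so labelled. Trdc, the constant gene of the δ chain, stood at 1233 CPM or more in every γδ T cell library and at 126 to 199 CPM in the DN sort, and Ptcra at 95.4 to 168 CPM in the DN sort and at 5.07 CPM in thymic WT 2, the highest of the γδ T cell libraries.

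Promoter sequence was available for 8 of the 10 genes (RefSeq, GRCm38.p6), in 11 windows reaching from 250 bases before to 50 after a start of transcription. Lmo2 and Spi1 had no window. These windows were searched on both strands, with overlapping matches counted, for AATCAC, the core of the GFI1 motif, and for GAGGAA, the core of the PU.1 motif, PU.1 being the product of Spi1. The GFI1 core was found in 1 of the 11 windows, and 10.4% of all 32851 promoters held it. The PU.1 core was found in 5 of the 11 windows, with a site shared by the overlapping windows of Kit counted in both, and 28.3% of all promoters held it. The 250 bases before the start are shown for Kit and Mef2c, which were called lower in KO in more than 1 sort, and for Lyl1, whose difference was the largest of the 10 genes among the Kit cells described below, with the matched bases in capitals. They lie at chr8:84701207-84701456 for Lyl1, at chr5:75574737-75574986 for Kit and at chr13:83573357-83573606 for the third window of Mef2c, each read 5′ to 3′ on the plus strand, which is the strand of the gene.
Lyl1: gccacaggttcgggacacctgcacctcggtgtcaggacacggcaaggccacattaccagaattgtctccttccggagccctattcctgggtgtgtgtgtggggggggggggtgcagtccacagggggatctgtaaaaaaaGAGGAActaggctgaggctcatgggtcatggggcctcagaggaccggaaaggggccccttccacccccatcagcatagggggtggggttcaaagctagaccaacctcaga
Kit: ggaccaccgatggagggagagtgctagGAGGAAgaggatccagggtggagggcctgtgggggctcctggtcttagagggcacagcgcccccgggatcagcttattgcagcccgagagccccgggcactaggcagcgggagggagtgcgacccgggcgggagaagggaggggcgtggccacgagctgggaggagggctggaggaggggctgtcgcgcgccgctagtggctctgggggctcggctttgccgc
Mef2c: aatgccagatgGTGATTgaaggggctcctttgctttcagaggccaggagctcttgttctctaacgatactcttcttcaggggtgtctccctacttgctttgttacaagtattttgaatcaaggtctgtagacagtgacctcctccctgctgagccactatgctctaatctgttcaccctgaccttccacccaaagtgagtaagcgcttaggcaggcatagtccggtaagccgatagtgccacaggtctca
In Lyl1 and Kit the capitals mark the PU.1 core, and in Mef2c the GFI1 core on the opposite strand, where it reads GTGATT. The first matched base lies at -110 in Lyl1, at -223 in Kit and at -239 in Mef2c, counted from the start of transcription. The match at -227 in the second window of Kit, which overlaps the first, is the same bases as the match at -223. The other matches to the PU.1 core were at -122 and -186 in the other windows of Mef2c. These matches are letters in a window and do not show binding.

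To place the 10 genes along the early thymic stages, DN cells were split into Kit cells, with at least 1 Kit UMI and fewer than 2 Ptcra UMIs, and Ptcra cells, with at least 2 Ptcra UMIs and no Kit UMI. These are ranges of UMIs and not cell types. Kit cells numbered 982 and 839 in WT 1 and WT 2 and 460 and 486 in KO 1 and KO 2. Ptcra cells numbered 1350 and 1776 in WT and 913 and 1982 in KO. Kit set the classes, so 9 genes remained to be compared. Lmo2, Lyl1, Cd34 and Spi1 had too few UMIs in Ptcra cells and passed the filter on low counts through Kit cells alone, so their differences are given as a description. The other 5 were all called higher in Kit cells (edgeR quasi-likelihood test, Benjamini-Hochberg adjusted p below 0.05, the rule for every call here), where 40.2% of the 12072 genes tested were called in either direction. The share of all tested genes that were called is given beside the counts as their background.

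Lyl1, Cd34 and Lmo2 had the largest estimated differences between the classes, as a description. Their errors overlapped, so their order is not settled. Lyl1 is a basic helix-loop-helix factor that joins Lmo2, a bridging LIM protein, in a DNA-binding complex of stem cells. In Kit cells, Lyl1 stood at 7.37 and 6.76 CPM in WT and at 2.31 and 1.21 CPM in KO, while Ptcra cells held 2, 1, 0 and 1 UMIs of it in WT 1, WT 2, KO 1 and KO 2. Lmo2 stood at 4.44 and 2.68 CPM in WT Kit cells and at 1.16 and 0.807 CPM in KO Kit cells, against 2, 0, 0 and 1 UMIs in Ptcra cells. Both genes were thus near the limit of detection in Ptcra cells of every library. Summed over the WT libraries, the ratio of Kit cells to Ptcra cells was 70.5 for Lyl1 (95% counting interval, exact, 23.6 to 346) and 54.4 for Lmo2 (14.5 to 458), intervals that cover counting error only. The fit gave log2 differences of 5.42 ± 0.53 (SE) for Lyl1 and 4.80 ± 0.68 for Lmo2, values that depend on the prior count where a class is near 0.

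Cd34, a sialomucin of hematopoietic stem and progenitor cells, and Spi1, which encodes the myeloid and lymphoid master factor PU.1, were also far higher in Kit cells. Cd34 was 4.92 ± 0.34 higher on the log2 scale and Spi1 3.57 ± 0.23 higher. In WT Kit cells Cd34 reached 16.8 and 6.88 CPM and Spi1 10.2 and 7.70 CPM. In Ptcra cells of all 4 libraries Cd34 was between 0.124 and 0.421 CPM and Spi1 between 0.496 and 0.781 CPM. The classes did not overlap for either gene. This is a description that the filter fixes in part, since both genes passed it through Kit cells alone. The share of all genes without overlap was not counted.

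Hhex, a homeobox factor needed by early lymphoid progenitors, was 3.17 ± 0.20 higher in Kit cells on the log2 scale (adjusted p = 2.18e-11), and Meis1, a homeobox cofactor of HOX proteins in stem cells, 1.82 ± 0.32 higher (adjusted p = 8.80e-05). Hhex read 16.1, 8.16, 8.78 and 8.07 CPM in Kit cells of WT 1, WT 2, KO 1 and KO 2, and 0.733, 0.682, 1.99 and 1.38 CPM in Ptcra cells. Meis1 read 4.54, 2.22, 2.08 and 2.42 CPM in Kit cells and 0.366, 0.372, 1.62 and 1.44 CPM in Ptcra cells. For both genes the Ptcra cells of the KO libraries were above those of the WT libraries, and their lowest Kit cell value was above all Ptcra cell values.

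Bcl11a, a zinc finger factor of early B, T and dendritic lineages, and Mef2c, a MADS box factor of lymphoid progenitors, were the most abundant of the transcription factors in both classes and fell least between them. Bcl11a was 0.92 ± 0.07 higher in Kit cells (adjusted p = 7.59e-10), from 22.5 to 29.3 CPM over the 4 Ptcra cell sums to 37.2 to 79.4 CPM over the 4 Kit cell sums. Mef2c was 0.70 ± 0.10 higher (adjusted p = 7.80e-06), but its ranges overlapped, with 11.2 to 19.8 CPM in Ptcra cells and 16.6 to 51.7 CPM in Kit cells. Flt3, a receptor of multipotent progenitors, was 0.78 ± 0.21 higher (adjusted p = 0.00404), with 1.05 to 4.57 CPM in Ptcra cells and 3.47 to 5.39 CPM in Kit cells. Flt3 lost this call in DESeq2 (adjusted p = 0.13) and without B- and myeloid-marker cells (log2 difference 0.26, adjusted p = 0.41). Depth differed between the classes, with medians of 7862 to 8947 UMIs in Kit cells and 6421 to 7194 UMIs in Ptcra cells, and with cells thinned to 3000 UMIs Mef2c lost its call (0.52, adjusted p = 0.061).

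**Figure D1:**
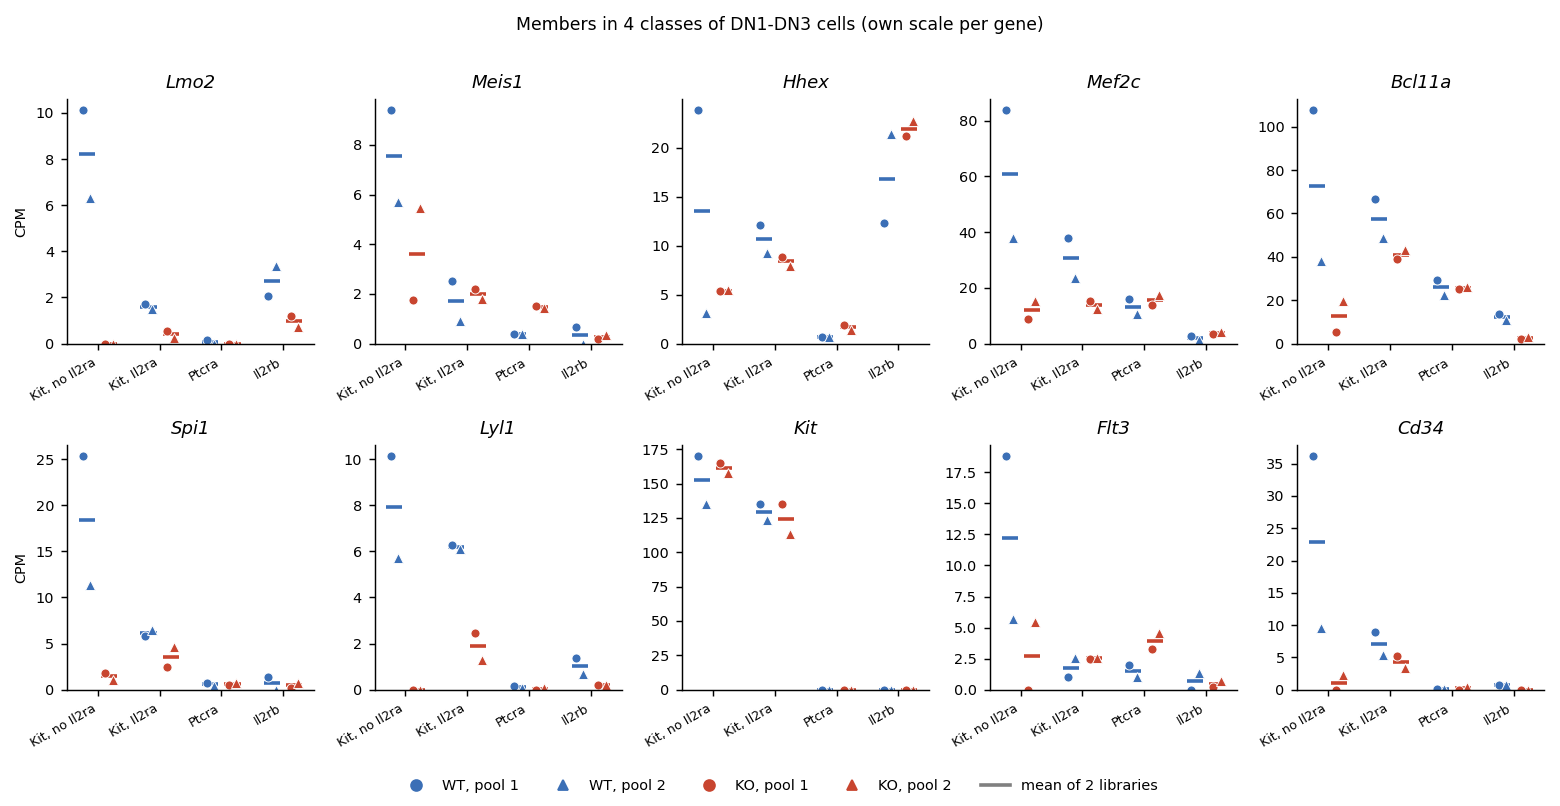
Level of each gene (CPM, own scale per panel) in 4 classes of DN1-DN3 cells, without B- and myeloid-marker cells: Kit cells without and with an Il2ra UMI, Ptcra cells and Il2rb cells. Points are libraries (circle pool 1, triangle pool 2, blue WT, red KO) and bars the mean of 2 libraries; Lmo2 and Lyl1 had no UMI in KO Kit cells without Il2ra, and Hhex was at 21.2 and 22.7 CPM in KO Il2rb cells.

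Kit cells were then split by Il2ra, leaving out B- and myeloid-marker cells. Those without an Il2ra UMI made up 2.19% ± 0.117 (SD, n = 2) of WT and 1.26% ± 0.222 of KO cells of the DN sort, and those with one 9.86% ± 1.76 and 5.10% ± 0.339. In WT, 6 of the 9 genes were higher without Il2ra in both pools, the exceptions being Hhex, Bcl11a and Lyl1, which were higher in WT 1 and lower in WT 2. This is a description, since the share of all genes that did so was not counted. The test below, averaged over genotypes, called none of these 6. Cd34 read 36.1 and 9.50 CPM without Il2ra against 8.90 and 5.37 CPM with it, and Spi1 25.3 and 11.4 CPM against 5.82 and 6.42 CPM. In KO, the cells without Il2ra held no UMI of Lmo2 or Lyl1, which allows levels of up to 5.32 and 3.29 CPM (3 UMIs per library), while the WT cells held Lmo2 at 10.1 and 6.33 CPM and Lyl1 at 10.1 and 5.70 CPM. All 4 WT levels were above both limits. Averaged over genotypes, 1 of the 9 genes was called, with 6.65% of 10557 genes called: Bcl11a was lower without Il2ra, with a log2 difference of -0.62 ± 0.17 (adjusted p = 0.00654). Its WT values were 108 and 38.0 CPM without Il2ra and 66.5 and 48.5 CPM with it, and its KO values 5.32 and 19.7 CPM and 39.0 and 42.9 CPM. DESeq2 (adjusted p = 0.352) and the fits without KO 1 (0.280) or WT 2 (0.285) did not call it.

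The KO cells of this Kit class without Il2ra also differed in markers of other cells. The 5 NK and innate lymphoid markers summed to 16.6 and 20.3 CPM in WT and 154 and 61.4 CPM in KO, where 1 gene of the list held most of it and the other 4 were at 40.8 and 24.1 CPM. The 4 αβ T cell markers summed to 27.5 and 39.3 CPM in WT and 122 and 60.3 CPM in KO, given here without a split by gene. Over all DN cells the KO sums of this list were mostly Trac, so the sums do not show αβ T cells. The part of these markers in the low levels of Lmo2 and Lyl1 was not tested. Among Kit cells with Il2ra, where Lyl1 had more UMIs, it read 6.27 and 6.12 CPM in WT and 2.47 and 1.28 CPM in KO, so the libraries did not overlap there either.

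The genotypes were compared first over all DN cells. Of the 10 genes, 2 were called, both lower in KO, where 22.9% of the 14925 genes tested were called. Kit, the receptor of stem cell factor, read 29.4 and 22.3 CPM in WT and 16.2 and 16.8 CPM in KO, a log2 difference of -0.64 ± 0.15 (adjusted p = 0.0135). Cd34 read 3.56 and 1.44 CPM in WT and 0.857 and 0.800 CPM in KO, a log2 difference of -1.58 ± 0.45 (adjusted p = 0.0300). Both calls leaned on single libraries: without WT 1 the differences were -0.48 (adjusted p = 0.13) and -0.85 (adjusted p = 0.30), and without KO 1 they were -0.57 (adjusted p = 0.068) and -1.57 (adjusted p = 0.11). Cd34 also lost its call without KO 2 (adjusted p = 0.062), without B- and myeloid-marker cells (-1.31, adjusted p = 0.11) and in DESeq2 (adjusted p = 0.058). The 4 mast cell and basophil markers, a lineage that also makes Kit, summed to 60.3 and 45.4 CPM in WT and 22.0 and 20.8 CPM in KO. Nearly all of it was Cpa3, and the rest was at 0.0324 and 0.0161 CPM in WT and 0.0214 and 0.284 CPM in KO. The sum thus does not show mast cells or basophils, and the part of Cpa3 cells in the Kit difference was not tested.

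The other 8 genes did not pass the test over all DN cells. Lyl1 came closest, at 1.86 and 1.32 CPM in WT and 0.600 and 0.409 CPM in KO, with a log2 difference of -1.66 ± 0.58 (adjusted p = 0.0649). With the pool as a block, which compares WT and KO within their shared droplet run, the adjusted p of Lyl1 was 0.0145. Bcl11a was lower in both KO libraries without overlap, at 41.7 and 27.8 CPM in WT and 18.7 and 25.9 CPM in KO, but its difference of -0.62 ± 0.70 had an error larger than itself (adjusted p = 0.562). Spi1 lay at 3.30 and 2.26 CPM in WT and 1.52 and 2.31 CPM in KO, and Lmo2 at 1.15 and 0.610 CPM in WT and 0.836 and 0.640 CPM in KO, both with overlap.

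Meis1, Hhex, Mef2c and Flt3 had log2 differences above 0 that did not pass the test. Meis1 read 1.15 and 0.546 CPM in WT and 1.18 and 1.37 CPM in KO (0.60 ± 0.40, adjusted p = 0.312). Hhex read 4.92 and 3.15 CPM in WT and 8.55 and 5.07 CPM in KO (0.75 ± 0.49, adjusted p = 0.303). Mef2c read 22.9 and 14.1 CPM in WT and 17.1 and 22.3 CPM in KO (0.11 ± 0.33, adjusted p = 0.844), and Flt3 2.43 and 1.93 CPM in WT and 2.21 and 3.95 CPM in KO (0.52 ± 0.31, adjusted p = 0.249).

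The share of cells with at least 1 UMI gave a like picture for Kit, with 17.2% and 14.6% of WT and 8.51% and 10.2% of KO cells of the DN sort. Bcl11a was found in 20.4% and 15.5% of WT and 8.17% and 12.5% of KO cells, Lyl1 in 1.26% and 0.816% of WT and 0.329% and 0.278% of KO cells, and Cd34 in 1.57% and 0.682% of WT and 0.343% and 0.437% of KO cells. With 2 libraries against 2, the exact permutation test of such shares cannot go below p = 0.33, so none could pass. Splenic γδ T cells, which should lack Cd34, held a Cd34 UMI in at most 0.0128% of cells at medians of 4947 to 5458 UMIs, against 5591 to 6231 UMIs in the DN sort.

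**Figure D2:**
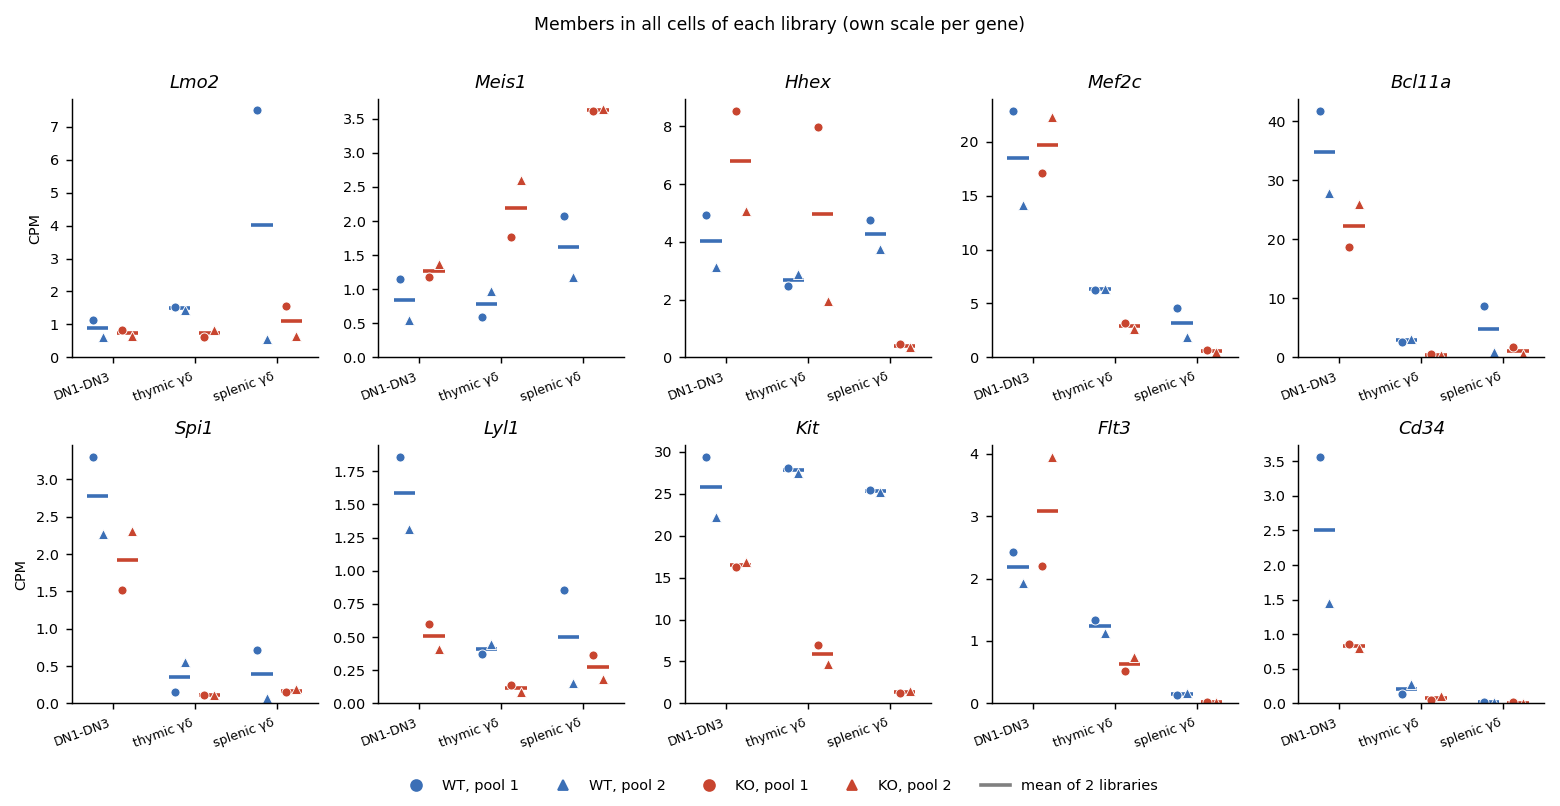
Level of each gene (CPM, own scale per panel) in all cells of each library of the 3 sorts. Points are libraries (circle pool 1, triangle pool 2, blue WT, red KO) and bars the mean of 2 libraries; Kit was lower in KO in all 3 sorts, and Lmo2 and Bcl11a of the splenic sort were high in WT 1 only, at 7.51 and 8.70 CPM.

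The makeup of the DN sort differed between the genotypes beside these levels. Kit cells made up 12.4% ± 1.70 (SD, n = 2) of WT and 6.51% ± 0.106 of KO cells, and Ptcra cells 21.2% ± 3.55 and 19.6% ± 9.31 (exact permutation p = 0.333 and 1). Cells with Il2rb, the β chain of the IL-2 and IL-15 receptors, and no Kit or Ptcra class made up 3.15% ± 0.0341 of WT and 18.9% ± 8.59 of KO cells (exact permutation p = 0.333). B-marker cells, with at least 2 UMIs over a list of 5 B cell markers, numbered 7 and 10 in WT and 26 and 67 in KO.

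These classes held very different parts of each gene's UMIs. Il2rb cells held 11.1% of the Hhex UMIs of WT and 50.3% of those of KO, at 12.3 and 21.4 CPM in WT and 21.2 and 22.7 CPM in KO. The level of Hhex within these cells overlapped between the genotypes, and the number of cells was 225 and 237 in WT and 1746 and 970 in KO. Over all cells with Il2rb, those of the other classes included, Hhex read 11.6 and 16.0 CPM in WT and 20.1 and 19.8 CPM in KO, without overlap. The B-marker cells held 2.44% of the Mef2c UMIs of WT and 30.6% of those of KO, at 741 and 212 CPM in WT and 754 and 566 CPM in KO. Without B- and myeloid-marker cells, Mef2c of the DN sort read 20.3 and 13.1 CPM in WT and at most 14.7 CPM in KO, and its log2 difference turned from 0.11 to -0.30 (adjusted p = 0.40). Kit cells without Il2ra, by contrast, held 23.0% of the Lmo2 UMIs of WT and none of those of KO.

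**Figure D3:**
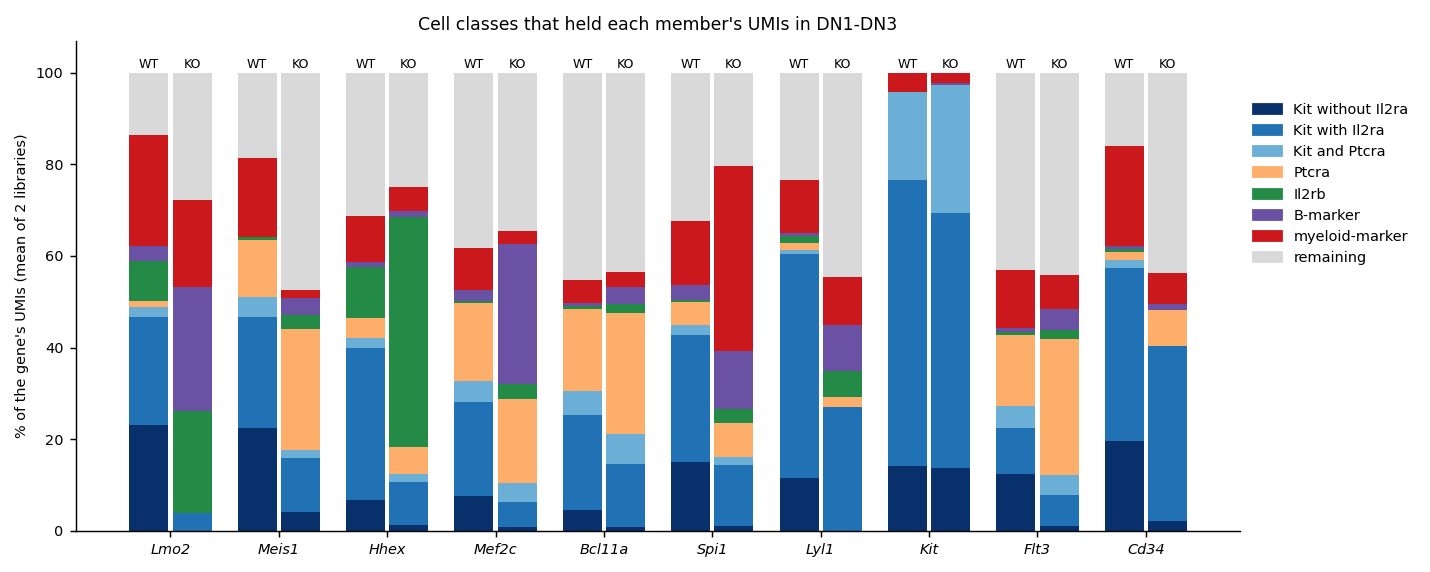
Share of each gene's UMIs (%, mean of 2 libraries, stacked to 100) held by the classes of DN1-DN3 cells, WT left and KO right for each gene. Il2rb cells (green) held 50.3% of Hhex UMIs in KO and 11.1% in WT, and B-marker cells (purple) 30.6% of Mef2c UMIs in KO and 2.44% in WT.

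Among Kit cells alone, Cd34 and Mef2c were called, both lower in KO, where 9.04% of 11353 genes were called, 293 lower and 733 higher. Lyl1 and Lmo2 also had an adjusted p below 0.05, but would not have passed the filter on low counts without the WT sums, so they are given as a description. Kit itself read 140 and 126 CPM in WT and 139 and 122 CPM in KO, a level the class fixes in part. Lyl1, given above with its levels, had a log2 difference of -1.99 ± 0.37 and Lmo2 one of -1.83 ± 0.50. The KO sums behind these were 5 and 4 UMIs of Lmo2 and 10 and 6 UMIs of Lyl1, against 47 and 23 and 78 and 58 UMIs in WT.

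Of the 2 genes called, Cd34 read 16.8 and 6.88 CPM in WT and 4.62 and 3.63 CPM in KO, a log2 difference of -1.50 ± 0.40 (adjusted p = 0.0359). Without WT 1, which had the high value, it was -0.75 (adjusted p = 0.56), and with Kit at least 2 and Ptcra at least 4 UMIs -1.37 (adjusted p = 0.096). Mef2c read 51.7 and 27.3 CPM in WT and 17.3 and 16.6 CPM in KO, a log2 difference of -1.19 ± 0.28 (adjusted p = 0.0295). In cells thinned to 3000 UMIs Mef2c was the 1 gene called (-1.26, adjusted p = 0.011), and Cd34 had too few UMIs left to be tested. Bcl11a, at 79.4 and 47.1 CPM in WT and 37.2 and 43.6 CPM in KO, did not overlap but did not pass (-0.60 ± 0.20, adjusted p = 0.105), and with the pool as a block it was called (-0.57, adjusted p = 6.21e-06). The blocked fit has few sums for its terms, so this p measures little of the spread between libraries. By pool, WT against KO was 79.4 against 37.2 CPM and 47.1 against 43.6 CPM.

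For Spi1, Flt3, Hhex and Meis1, Kit cells of the genotypes were closer, with log2 differences of -0.30 ± 0.25, -0.17 ± 0.35, -0.50 ± 0.28 and -0.56 ± 0.44. Their adjusted p ran from 0.422 for Hhex to 0.924 for Flt3. Among Kit cells without B and myeloid markers, single cells with UMIs of 4 or more of the other 9 genes were scarcer in KO. They made up 5.36% and 3.56% in WT and 0.667% and 0.633% in KO. These were 51, 29, 3 and 3 cells. The share with 3 was 3.47% and 2.21% in WT and 1.56% and 2.11% in KO. The shares with 1 and with 2 overlapped between the genotypes. So did the share with none, at 53.8% and 63.5% in WT and 68.4% and 62.2% in KO. Whether this goes beyond the lower levels of single genes was not tested.

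Among Ptcra cells, the differences went the other way for some genes. Lmo2, Lyl1 and Cd34 had too few UMIs to be tested, and Flt3 was called, higher in KO, where 18.4% of 12100 genes were called. Meis1 passed the filter on low counts through the KO sums alone, so its difference is given as a description. It rested on 5 and 6 UMIs in WT and 13 and 24 in KO, at 0.366 and 0.372 CPM against 1.62 and 1.44 CPM, a log2 difference of 2.02 ± 0.48. Flt3 read 1.91 and 1.05 CPM in WT and 3.24 and 4.57 CPM in KO, a log2 difference of 1.47 ± 0.34 (adjusted p = 0.00441). The call of Flt3 was lost in DESeq2 (adjusted p = 0.052), without WT 2 (adjusted p = 0.059) and without KO 2 (1.09, adjusted p = 0.067). Hhex lay in the same direction without passing (1.20 ± 0.43, adjusted p = 0.0591) and was called with the pool as a block (adjusted p = 0.0254), again a fit with few sums for its terms. Bcl11a differed little, at 29.3 and 22.5 CPM in WT and 25.2 and 26.9 CPM in KO (0.03 ± 0.12). Of markers of other cells tested in Ptcra cells, the 1 B cell marker was higher in KO (2.33), as was 1 of 2 NK and innate lymphoid markers (median 1.66), while 1 of 2 myeloid markers (median -0.99) and 2 of 4 γδ T cell markers (median -0.27) were lower, and their part in the Flt3 difference was not tested.

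Whether the KO difference itself changed between the classes was tested as an interaction in the fit of 8 sums. For 5 of the 9 genes it was lower in Kit cells than in Ptcra cells, where 6.11% of 12072 genes were called in either direction. The interaction was -1.55 ± 0.19 for Mef2c (adjusted p = 2.96e-05), -2.51 ± 0.62 for Meis1 (0.0184), -1.59 ± 0.40 for Flt3 (0.0201), -1.65 ± 0.45 for Hhex (0.0300) and -0.61 ± 0.14 for Bcl11a (0.0137). That of Meis1 rests on the same few UMIs of WT Ptcra cells for which its difference was given above as a description. Without WT 1, without KO 2 and in DESeq2 the count was 1, and Mef2c was called in each (-1.33, -1.25 and -1.50). In cells thinned to 3000 UMIs none was called: Mef2c (-1.33, adjusted p = 0.14), Hhex (-2.51, 0.56) and Bcl11a (-0.44, 0.78) lost their calls, and Meis1 and Flt3 could not be tested. With Kit at least 2 and Ptcra at least 4 UMIs the count was 3. For Lyl1 and Lmo2 the interaction had errors of 2.29 and 2.33, since Ptcra cells held 0 to 2 UMIs of them per library.

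**Figure D4:**
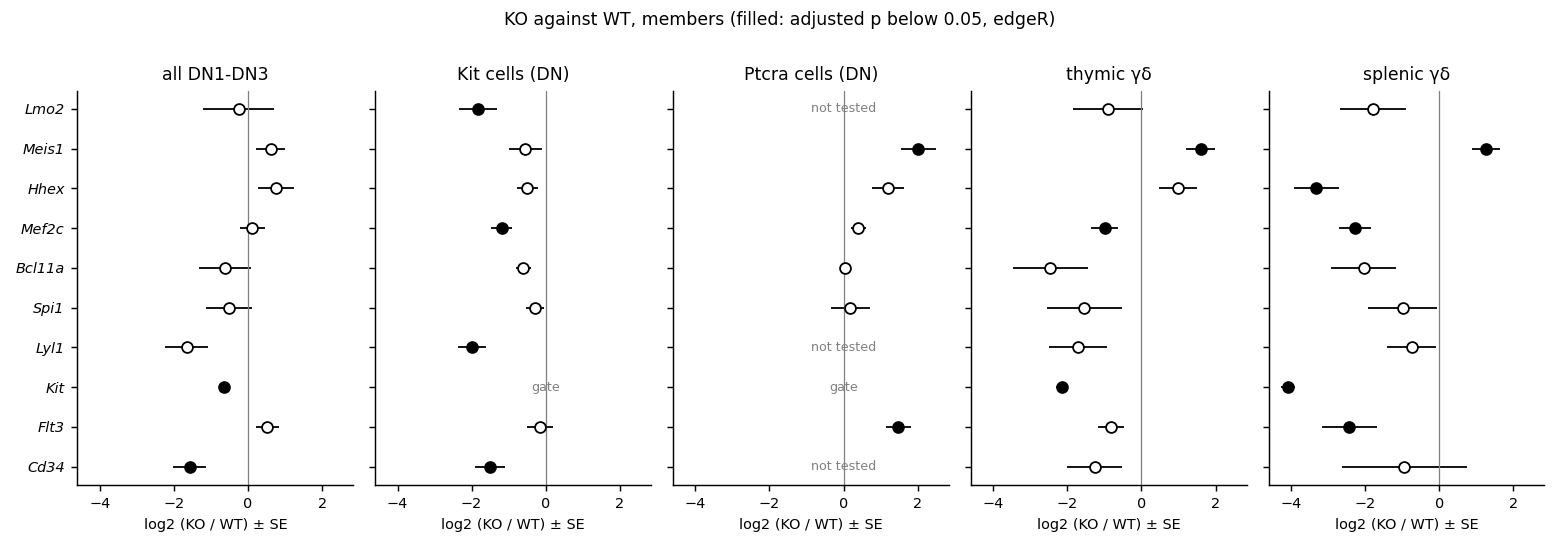
Log2 difference KO over WT with its standard error for each gene in all DN1-DN3 cells, in their Kit and Ptcra cells, and in thymic and splenic γδ T cells. Filled points had an adjusted p below 0.05 (edgeR), which for Lmo2 and Lyl1 in Kit cells and Meis1 in Ptcra cells is no call, since these would not have passed the filter without the higher genotype. Lmo2, Lyl1, Mef2c and Cd34 lay at -1.19 or lower in Kit cells, and Meis1 and Flt3 at 2.02 and 1.47 in Ptcra cells.

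The genes that work with these factors were read from lists, whose counts are set beside the same backgrounds of 9.04% of all genes called in Kit cells and 18.4% in Ptcra cells. Of the 10 partners of Lmo2 and Lyl1, 8 could be tested in Kit cells: Ssbp2, which stabilizes the complex, was lower in KO (-0.91 ± 0.14, adjusted p = 0.000519) and Gata3, a T cell factor that can also bind it, higher (0.48 ± 0.13), and the median of the list was -0.11 against 0.0017 over all genes. In Ptcra cells 3 of 8 were higher, among them Tcf4 (0.72 ± 0.11) and Gata3 (0.64 ± 0.11), and Ssbp2 was again lower (-0.85 ± 0.11), with a list median of -0.05 against -0.0064 over all genes. Of the 5 Meis1 partners tested in Kit cells, 0 were called by edgeR and 1, Hoxa7, had an unadjusted p below 0.05 (0.00803, adjusted p = 0.0770), with a list median of 0.15. In Ptcra cells 3 of 5 were higher in KO, among them Hoxa9 (1.59 ± 0.35) and Hoxa7 (1.10 ± 0.11).

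Of 16 other progenitor genes, 11 could be tested in Kit cells, where 4 were lower in KO and 1 higher, with a median of -0.47 against 0.0017 and 9.04% of genes called over all genes. Angpt1, a ligand of the Tie2 receptor that early progenitors make, had a log2 difference of -1.92 ± 0.19, Nfe2, a factor of megakaryocytes, of -1.69 ± 0.25 and Mycn, which drives proliferation, of -1.16 ± 0.25. Of the 14 genes of T cell commitment, 4 were higher and none lower in KO Kit cells, with a median of 0.20. They were Dtx1, a Notch target (1.51 ± 0.14), Rag1 (0.96 ± 0.14) and Rag2 (0.53 ± 0.14) of the recombinase, and Gata3. In Ptcra cells, where 18.4% of all genes were called, 4 were higher and none lower, with a median of 0.18, and there too they were Dtx1 (0.99 ± 0.10), Rag1 (0.72 ± 0.12), Rag2 (0.66 ± 0.11) and Gata3. Of the NK and innate lymphoid markers, 3 of the 4 tested were higher in KO Kit cells (median 2.14), as was 1 of 3 αβ T cell markers (median 1.41). There 1 of 2 myeloid markers (median -0.54) and the 1 mast cell marker tested, Cpa3 (-0.96), were lower, no B cell marker could be tested, and their part in the differences between Kit cells was not tested.

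Over all DN cells, where 22.9% of all genes were called, the ligands of both receptors were higher in KO. Kitl, stem cell factor, had a log2 difference of 2.39 ± 0.63 (adjusted p = 0.0212) and Flt3l, the ligand of Flt3, of 2.05 ± 0.29 (adjusted p = 0.000938). Among 9 relatives of the 10 genes tested there, Lmo1 was lower (-1.51 ± 0.29), Bcl11b, the commitment factor that is a relative of Bcl11a, was lower (-0.38 ± 0.10) and Spib, a relative of Spi1, was higher (0.94 ± 0.26). Of the 14 other progenitor genes tested over all DN cells, 3 were higher and 3 lower, with a median of 0.0070 against -0.02 over all genes, among them Cd44 at 2.89 ± 0.38 and Angpt1 at -1.71 ± 0.29. The 5 NK and innate lymphoid markers summed to 14.7 to 16.3 CPM in WT and 56.3 to 166 CPM in KO. Rora made up most of the KO sums, and the other 4 were at 7.41 and 6.02 CPM in WT and 21.3 and 14.3 CPM in KO. The 5 B cell markers summed to 2.10 to 2.77 CPM and 5.55 to 13.6 CPM. The αβ T cell markers summed to 27.3 and 31.3 CPM in WT and 164 and 72.0 CPM in KO, most of it Trac. Without Trac they were at 8.49 and 10.7 CPM in WT and 10.1 and 6.38 CPM in KO.

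The next comparison asked how much of the program remained once the γδ fate was taken. Between WT thymic γδ T cells and WT DN cells, 5 of the 10 genes were called, all lower in γδ T cells, where 47.1% of 14925 genes were called. The log2 difference was -3.57 ± 0.80 for Bcl11a, -3.52 ± 0.51 for Cd34, -2.90 ± 0.72 for Spi1, -1.92 ± 0.57 for Lyl1 and -1.52 ± 0.35 for Mef2c. Kit did not differ beyond its error, at 28.1 and 27.5 CPM in thymic γδ T cells and 29.4 and 22.3 CPM in DN cells (0.13 ± 0.15, adjusted p = 0.507). The sorts were run in separate pools, so the run and the cell type cannot be told apart.

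In thymic γδ T cells, 3 of the 10 genes were called between the genotypes, where 49.7% of 14925 genes were called. The makeup of this sort also differed. The paper reports that its thymic Trgv6+ cluster held KO cells only, and most of the KO γδ T cells. The values here are levels of the whole sort, and the part of this makeup in the differences was not tested. Kit was lower in KO, at 28.1 and 27.5 CPM in WT and 7.01 and 4.69 CPM in KO, a log2 difference of -2.13 ± 0.16 (adjusted p = 8.08e-06). Mef2c was lower, at 6.28 and 6.39 CPM in WT and 3.23 and 2.64 CPM in KO (-0.99 ± 0.36, adjusted p = 0.0460), and Meis1 higher, at 0.594 and 0.977 CPM in WT and 1.77 and 2.60 CPM in KO (1.59 ± 0.40, adjusted p = 0.00735). Mef2c lost its call without any 1 of the 4 libraries (adjusted p 0.12 to 0.20), and Meis1 without WT 1 (0.066) or KO 2 (0.063). The mast cell and basophil markers summed to 222 and 172 CPM in WT and 39.5 and 25.4 CPM in KO, all of it Cpa3, with the other 3 at 0 in every library, and the part of Cpa3 cells in the Kit difference was not tested. The NK and innate lymphoid markers summed to 146 and 132 CPM in WT and 443 and 494 CPM in KO, most of it Rora. Without that gene this list summed to 16.6 and 12.4 CPM in WT and 14.4 and 3.88 CPM in KO. The αβ T cell markers summed to 65.2 to 70.0 CPM in WT and 54.4 to 54.9 CPM in KO, and the myeloid markers to at most 10.8 CPM in every library.

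Bcl11a and Lyl1 were also lower in both KO libraries of the thymic γδ T cells, without a call in the fit of 12 libraries. Bcl11a read 2.60 and 3.13 CPM in WT and 0.519 and 0.441 CPM in KO, and Lyl1 0.373 and 0.447 CPM in WT and 0.142 and 0.0882 CPM in KO. With the pool as a block both were called, at -2.45 (adjusted p = 0.00776) and -1.71 (adjusted p = 0.0267). Hhex went apart by library, with 2.46 and 2.89 CPM in WT and 7.98 and 1.94 CPM in KO. Its log2 difference of 0.99 ± 0.50 (adjusted p = 0.131) became -0.30 without KO 1. Lmo2 (1.54 and 1.44 CPM in WT, 0.614 and 0.838 CPM in KO), Flt3 (1.34 and 1.13 CPM, 0.519 and 0.749 CPM) and Spi1 and Cd34, all under 0.6 CPM, were lower in KO in both pools and not called. Spi1 rested on 9 and 40 UMIs in WT and 5 and 5 in KO, and Cd34 on 8 and 20 in WT and 2 and 5 in KO. The share of all genes that were lower in both KO libraries, as these and Bcl11a and Lyl1 were, was not counted.

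The Kit difference was larger in thymic γδ T cells than in the DN sort. The interaction of genotype and sort was -1.49 ± 0.22 for Kit (adjusted p = 0.00148), the 1 gene of the 10 called there, where 21.8% of 14925 genes were called. The share of thymic γδ T cells with a Kit UMI was 13.6% and 13.7% in WT and 2.81% and 1.95% in KO.

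Immature γδ T cells, taken as cells with at least 2 UMIs of Cd24a, numbered 599 and 801 in WT and 160 and 115 in KO, or 9.42% ± 0.895 (SD, n = 2) of WT and 1.93% ± 0.599 of KO cells. Of the 5 genes tested in them, 0 were called by edgeR or DESeq2 and 1 had an unadjusted p below 0.05, where 8.52% of 11134 genes were called. Kit read 19.4 and 17.8 CPM in WT and 21.0 and 11.4 CPM in KO in these cells (-0.13 ± 0.23).

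In splenic γδ T cells, 5 of the 10 genes were called, 4 lower and 1 higher in KO, where 54.8% of 14925 genes were called. The paper reports that clusters with Trgv6 and related genes held almost all splenic γδ T cells of KO, and that Vγ6+ cells were expanded against WT. The levels of this whole sort thus compare different mixes of γδ T cells, and the part of this makeup in the differences was not tested. Kit read 25.5 and 25.3 CPM in WT and 1.28 and 1.51 CPM in KO, 16.9-fold lower (log2 difference -4.08 ± 0.18, adjusted p = 1.40e-07). Hhex read 4.78 and 3.76 CPM in WT and 0.449 and 0.360 CPM in KO (-3.31 ± 0.60, adjusted p = 0.00114), and Mef2c 4.56 and 1.90 CPM in WT and 0.726 and 0.532 CPM in KO (-2.26 ± 0.43, adjusted p = 0.00152). Meis1 was higher, at 2.07 and 1.18 CPM in WT and 3.61 and 3.64 CPM in KO (1.27 ± 0.38, adjusted p = 0.0160). These 4 genes did not overlap between the genotypes, and the share of all genes for which that held was not counted. The Mef2c difference was -1.53 without WT 1 (adjusted p = 0.0066) and -1.34 in cells thinned to 3000 UMIs (adjusted p = 0.012).

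Flt3 was the fifth, on very few UMIs: 6 and 10 in WT and 1 and 2 in KO, a ratio of 6.11 (95% counting interval, exact, 1.75 to 32.7) and a log2 difference of -2.42 ± 0.74 (adjusted p = 0.0176). It was not called without KO 1, WT 2 or KO 2 (adjusted p 0.066 to 0.083) or with the pool as a block (adjusted p = 0.0534), and Bcl11a then was (-1.66, adjusted p = 0.0201). Meis1 lost its call without WT 2 (0.85, adjusted p = 0.15) and, by a small margin, without either KO library. Cd34 was at most 1 UMI per library.

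Most UMIs of Lmo2, Bcl11a and Lyl1 in splenic WT 1 came from a few cells. Lmo2 read 7.51 and 0.554 CPM in WT and 1.56 and 0.647 CPM in KO, and Bcl11a 8.70 and 0.857 CPM in WT and 1.67 and 0.547 CPM in KO. In WT 1, 27 of 7820 cells had at least 3 UMIs over a list of 5 erythroid genes, a gate chosen after these values were seen. These 27 cells held 287 of the 316 Lmo2 UMIs, 337 of the 366 Bcl11a UMIs and 28 of the 36 Lyl1 UMIs of the library, 167 of its 1073 Kit UMIs, 65 of its 192 Mef2c UMIs and 87 of its 57216 Trdc UMIs. They also held 59 of its 201 Hhex UMIs and 21 of its 87 Meis1 UMIs. Their median depth was 28301 UMIs against 4947 for the library, and the other splenic libraries had 6 to 10 such cells. Those held 8 of 33 Lmo2, 21 of 51 Bcl11a and 1 of 9 Lyl1 UMIs in WT 2, 32 of 73, 57 of 78 and 6 of 17 in KO 1, and 7 of 45, 14 of 38 and 0 of 13 in KO 2, so apart from Bcl11a in KO 1 most UMIs lay in other cells there.

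Without these cells, Lmo2 read 0.702 and 0.421 CPM in WT and 0.879 and 0.547 CPM in KO and Bcl11a 0.702 and 0.505 CPM in WT and 0.450 and 0.346 CPM in KO. The log2 difference of Lmo2 moved from -1.77 ± 0.89 to 0.44 (adjusted p = 0.37) and that of Lyl1 from -0.74 ± 0.67 to 0.46 (adjusted p = 0.39). Kit, at 21.9 and 25.2 CPM in WT and 0.900 and 1.43 CPM in KO without them, had a log2 difference of -4.22 there. In the DN and thymic libraries, 1 to 7 cells passed the same gate.

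**Figure D5:**
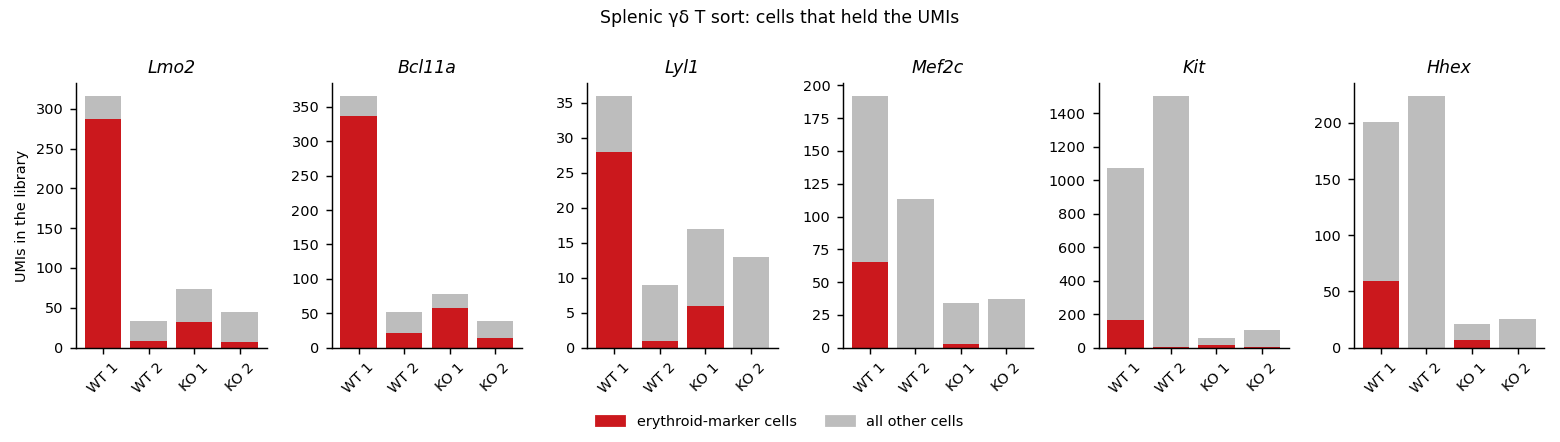
UMIs of 6 genes in each library of the splenic γδ T cell sort (bars from 0), split into erythroid-marker cells (red) and all other cells (grey). In WT 1, 27 cells held 287 of 316 Lmo2 and 337 of 366 Bcl11a UMIs, while most Kit and Hhex UMIs lay in other cells.

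Sums over the marker lists of other cells also differed in the splenic libraries. They do not show such cells, since γδ T cells also transcribe genes of these lists. The 4 αβ T cell markers summed to 251 and 199 CPM in WT and at most 65.2 CPM in KO, and their part in the differences above was not tested. The 7 myeloid and dendritic markers summed to 75.5 and 77.9 CPM in WT and 5.43 and 4.32 CPM in KO. Most of it was Ms4a6c, which the paper lists as lower in KO within splenic Trgv6+ γδ T cells. The other 6 together were at 3.71 CPM or less in every library. The 4 mast cell and basophil markers were at 5.23 and 3.14 CPM in WT and 1.13 and 0.417 CPM in KO. Without Cpa3 they were at 0.0950 and 0.0504 CPM in WT and 0.726 and 0.101 CPM in KO. The 5 NK and innate lymphoid markers summed to 197 and 199 CPM in WT and 708 and 688 CPM in KO. Most of the KO sums was Rora, which the paper lists as higher in KO within splenic Trgv6+ γδ T cells. The other 4 together were at 96.7 and 114 CPM in WT and 9.95 and 10.8 CPM in KO. In the fit 3 of these 5 NK and innate lymphoid markers were lower and 1 higher (median -2.21), and their part was not tested.

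Between WT spleen and WT thymus, 3 of the 10 genes were called in γδ T cells, where 48.8% of 14925 genes were called. Flt3 was lower in the spleen, with a log2 difference of -2.88 ± 0.42 (adjusted p = 0.000332) and Meis1 higher, with one of 1.10 ± 0.40 (adjusted p = 0.0441). Meis1 lost this call in cells thinned to 3000 UMIs (0.74, adjusted p = 0.19) and without erythroid-marker cells (0.88, adjusted p = 0.069), the latter chosen after seeing the data. Cd34 was lower (-3.20 ± 0.95, adjusted p = 0.0184), from 28 UMIs in the thymus and 2 in the spleen, a ratio of 10.9 (95% counting interval, exact, 2.75 to 94.4), and with the pool as a block it was not called (adjusted p = 0.246). Under that block Lmo2 (2.10, adjusted p = 0.0313) and Bcl11a (1.55, adjusted p = 0.0442) were called higher in the spleen, genes whose UMIs in WT 1 lay mostly in erythroid-marker cells. No pool held both organs, so the block cannot pair them, and these changes of call decide nothing. Kit did not differ beyond its error (-0.05 ± 0.15, adjusted p = 0.793). The splenic libraries had 0.374 CPM of Xist or less and the thymic and DN libraries 739 CPM or more, so the organ and the sex of the mice cannot be told apart.

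Partners and relatives of the 10 genes also differed between the genotypes in γδ T cells, where 49.7% of all genes were called in the thymus and 54.8% in the spleen. These too are differences of whole sorts, and the part of the makeup by Trgv6+ cells was not tested. Ssbp2 had log2 differences of -1.77 ± 0.23 in the thymus and -5.00 ± 0.27 in the spleen, and Cbfa2t3, a corepressor of the complex, of -1.81 ± 0.31 and -2.99 ± 0.48. Of the 10 Lmo2 and Lyl1 partners tested, 6 were lower and 2 higher in thymic KO cells (list median -0.96 against -0.0020 over all genes) and 5 lower and 2 higher in splenic KO cells (-0.84 against 0.0033). Meis2, a homolog of Meis1, had differences of 4.21 ± 0.47 in the thymus and 4.92 ± 0.39 in the spleen, and Lmo1 of -3.63 ± 0.35 and -4.24 ± 0.46. Of the 9 relatives tested, 3 were higher and 5 lower in the thymus (median -0.43) and 4 higher and 4 lower in the spleen (-0.09). Flt3l was higher in KO in both organs (1.46 ± 0.26 and 1.11 ± 0.25), and Kitl lower in the thymus (-3.28 ± 0.60). The interaction of genotype and sort, thymic γδ T against DN cells, was -5.67 ± 0.87 for Kitl (adjusted p = 0.00183), 3.63 ± 0.81 for Meis2 (0.0109) and -2.12 ± 0.46 for Lmo1 (0.0101), and did not pass for Ssbp2 (-0.60 ± 0.31, adjusted p = 0.204), Cbfa2t3 (-1.18 ± 0.42, 0.0749) or Flt3l (-0.59 ± 0.38, 0.306).

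For each gene, the most similar pattern was sought over 24 sums of DN cells (4 libraries by 6 classes) among 9882 genes, by Pearson correlation, as a description with no test since the sums share libraries. For the transcription factors, the nearest genes were Cd180 (0.921) and H2-Ob (0.918) for Lmo2, Oxct1 (0.769) and Rnf216 (0.736) for Lyl1, Napsa (0.935) and Btk (0.923) for Spi1 and Wdfy4 (0.947) and Syk (0.896) for Bcl11a. They were Ckap4 (0.933) and Cd180 (0.931) for Mef2c, Mob3a (0.837) and Tdrd7 (0.823) for Hhex and Shq1 (0.786) and Prmt7 (0.704) for Meis1. For the surface proteins they were Cpa3 (0.704) and Tyrobp (0.652) for Kit, Mef2c (0.863) and Cecr2 (0.84) for Flt3 and Rgs18 (0.755) and Nrm (0.743) for Cd34. The B-marker cells, 7 to 67 per library, held Mef2c at 212 to 754 CPM, and their weight in these correlations was not tested.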

How the data were processed

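Droplet 3′ RNA-seq was read from 6 pools, each with 1 hashtag sample. The deposited values were raw UMI counts per gene and cell, made by the authors with Cell Ranger 8.0.1 (file header) on GRCm39 (submitters' processing notes) and split by hashtag into WT and KO. Of 97404 barcodes, 96911 passed filters of 500 UMIs or more, 200 genes or more and no more than 20% mitochondrial reads. Doublets between genotypes had been removed by the authors' hashtag calls, and no further caller was run. Counts were summed per library and cell class, 9543 ribosomal, mitochondrial and Gm genes were left out by name, and genes were tested with edgeR 4.0.16 (quasi-likelihood F test, robust, TMM, filterByExpr, R 4.3.3), with Benjamini-Hochberg adjustment over all genes tested and a threshold of 0.05. Standard errors are the log2 difference over the square root of F. Whole sorts were fitted over 12 libraries and cell classes over the sums compared, with no block.

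The labels give WT and KO of a pool the same number and droplet run, so numbers pair the libraries. The differences between pools correlated between the genotypes at 0.175 (DN), 0.0629 (thymic) and 0.290 (splenic) over 14925 genes. Alternatives were DESeq2 1.42.0, RLE factors, no filter, the pool as a block, other gates, cells thinned to 3000 UMIs, cells with markers of other lineages left out and each library left out. Exact permutation tests compared shares. The procedure was tested on simulated data. The named genes were the 10 members and up to 3 called genes of each list with the largest difference, plus the 2 genes most alike in pattern. The members and lists were chosen with earlier results of these data known. Intervals and limits cover counting error only. Promoter windows came from RefSeq (GRCm38.p6), whose coordinates were not mixed with those of the files. A planned split of γδ T cells by 1 gene is not reported here.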

Additional observations from a re-analysis of the deposited data

Results flagged for a closer look

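The difference between KO and WT in Kit was lower in thymic γδ T cells than in the DN sort by 1.49 on the log2 scale (interaction -1.49 ± 0.22, edgeR adjusted p = 0.00148). Both sorts differed in makeup between the genotypes, and the part of this in the Kit interaction was not tested.

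Between Kit cells and Ptcra cells of the DN sort, the difference between KO and WT differed for 5 genes, with interactions of -2.51 for Meis1, -1.65 for Hhex, -1.55 for Mef2c, -0.61 for Bcl11a and -1.59 for Flt3. That of Meis1 rests on few UMIs in WT Ptcra cells. Without WT 1 or without KO 2, Mef2c was the 1 gene called, and in cells thinned to 3000 UMIs none of the 3 of them tested (Hhex, Mef2c and Bcl11a) was.

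Hhex was higher in both KO libraries of the DN sort and lower in both KO libraries of the splenic γδ T cells. Its KO minus WT difference was 6.64 CPM lower in the spleen (-6.64), and this difference between the sorts was not tested.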

How the results depend on the processing

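Of the 33 calls of single genes, without the 7 given as a description, 398 alternatives left 336 called in the same direction, 62 lost the call and 0 turned. The number of genes called, which here includes those 7, moved as follows, and the cause was not tested. In DESeq2 it was 1 of 10 for the DN sort, 1 for the interaction of class and genotype, 0 within Ptcra cells and 0 for the Il2ra split. Without a low-count filter it was 1 for Cd24a cells. With Kit at least 2 and Ptcra at least 4 UMIs it was 3 for the interaction, 1 within Ptcra cells and 0 for the Il2ra split, which was also 0 with cells positive for both in the Kit class and 4 with B- and myeloid-marker cells. Without these cells it was 1 for the DN sort. Fitted on the libraries compared alone it was 6 for thymic γδ T cells and 2 for the interaction with the DN sort.

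Thinning to 3000 UMIs, with fewer genes tested, gave 3 for Kit against Ptcra cells, 0 for the interaction, 1 within Kit cells, 0 within Ptcra cells, 0 for the Il2ra split, 5 for thymic γδ T cells and 2 for the thymic and DN interaction. In 2 alternatives chosen after seeing the data, leaving out erythroid-marker cells gave 5 for thymic γδ T cells, 2 for their interaction and 6 for WT spleen against thymus, and keeping Ms4a6c out of the myeloid list gave 1 for the DN sort.

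With the pool as a replicate block, the count was 3 for the DN sort, 5 for thymic and 5 for splenic γδ T cells, 5 within Kit cells, 3 within Ptcra cells and 4 for WT spleen against thymus. No pool held both organs, so the block does not pair the last of these. Within Kit and within Ptcra cells the blocked fits have few sums for their terms, so their p values measure little of the spread between libraries. Among genes called without the block, it ended the calls given with their blocked p (Flt3 in the spleen and Cd34 between organs) and no other in these fits and in that of Cd24a cells. The fits of Kit against Ptcra cells, of the interaction and of the Il2ra split already hold each library as a term, so no block was added.

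Leaving out 1 library at a time gave counts of 0 to 2 (DN), 1 to 2 (thymic), 3 to 7 (splenic), 1 to 2 (thymic and DN interaction), 1 to 6 (class and genotype), 2 to 5 (within Kit), 0 to 3 (within Ptcra) and 0 to 1 (Cd24a).

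Directions turned for values that were not called. Mef2c of the DN sort was -0.30 without B- and myeloid-marker cells, -0.31 with Ms4a6c kept out of that list, -0.10 thinned, -0.15 without WT 2 and -0.16 without KO 2. With 1 library left out, Lmo2 (DN) ran from -0.59 to 0.22 (without WT 1), Flt3 (DN) from -0.029 (without KO 2) to 0.91 and Hhex (thymic) from -0.30 (without KO 1) to 1.66. In the spleen, Lmo2 was 0.44 and Lyl1 0.46 without erythroid-marker cells, and Cd34 2.09 thinned. There, with 1 library left out, Lmo2 ran from -2.75 to 1.06, Bcl11a from -3.02 to 0.39, Spi1 from -2.02 to 1.40 and Lyl1 from -1.64 to 0.89, each highest without WT 1, and Cd34 from -3.34 to 0.22 (without KO 2). The KO minus WT share of Ptcra cells was 0.733 points thinned and -5.67 to 2.47 within single pools, and thinned shares of cells with a UMI differed by 0.00695 (Lmo2, DN), -0.0403 (Lmo2, spleen) and 0.0067 points (Cd34, spleen). Depth limits Lmo2, Lyl1 and Cd34 in Ptcra cells and Spi1, Flt3 and Cd34 in γδ T cells, where libraries held few or no UMIs.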
